A study of Mus musculus with 6 samples.

Results

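The 10 genes described here encode Notch receptors (Notch1, Notch2 and Notch4), their ligands (Dll1, Dll4, Jag1 and Jag2) and transcription factors that Notch signals switch on (Hey1, Hey2 and Hes1). They were taken by their symbols from the 24457 genes on chromosomes that the expression tables hold. The tables give the RNA of endothelial cells (ECs) of the mouse thymus, sorted into 3 subsets with 2 libraries each, 6 in all. Every library came from wildtype female C57BL/6 mice, aged 4 to 6 weeks per the labels, although the study's methods give an older range. No animal was treated or carried a modified allele. ECs were gated as CD31+ cells without CD45 and EpCAM and were then split by 2 surface proteins, Ly6C, which is carried by capillary ECs, and P-selectin (Selp), an adhesion molecule that slows leukocytes on the vessel wall. Type I ECs were Ly6c+ Selp-, type II ECs were Ly6c+ Selp+ and type III ECs were Ly6c- Selp+. The study named the last of these thymic portal ECs, so the question here is how the Notch genes differ along this sort.

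Notch receptors sit in the membrane and bind Delta and Jagged ligands on a neighbouring cell. Binding exposes the receptor to proteases, gamma-secretase frees its intracellular domain, and that domain joins the DNA-binding protein RBPJ to switch on genes such as those of the Hes and Hey families. In blood vessels the pathway is known for restraining sprouting behind the tip cell and for specifying arteries. In the thymus, Dll4 on epithelial cells is the ligand that commits progenitors to the T lineage. The RNA measured here is that of cells sorted as ECs, and markers of other cells are given below.

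Expression is given as FPKM, the fragments of a gene corrected for transcript length and library depth, so that levels of different genes can be set side by side. The number of fragments behind a value was read back from the width of its deposited 95% interval and is an estimate that covers counting error only. It summed to between 1452476 and 2423171 in a library, and 3 fragments were worth a median FPKM of 0.324 to 0.553. The 10 genes rested on 3 to 2406 fragments in a library, fewest for Hey2 and most for Notch1. The sort was at least 90% pure per the labels. RNA of Selp had a mean FPKM of 6.54 in type I, 364 in type II and 591 in type III ECs, and that of Ly6c1, which may share reads with its paralogs, had the opposite order, at 851, 436 and 79.7. Markers of blood vessel ECs were present throughout, and none of the 9 was at 0 in any library. Neither the number of mice behind a library nor whether replicates came from separate mice is stated, so p-values measure only the spread between these libraries. In RNA of a sorted population, fewer cells that express a gene and less RNA per cell cannot be told apart.

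Of the 10 genes, 5 were lower in type III than in type I ECs, namely Notch4, Dll4, Jag2, Hey1 and Hes1, and none was higher (limma, adjusted p below 0.05 over 11717 tested genes). By the same test 4.14% of all tested genes differed, 2.05% lower and 2.09% higher. The 5 comprised a receptor, ligands of both families and 2 of the 3 targets. Notch1, Notch2, Dll1, Jag1 and Hey2 did not pass. The study's own list of genes differing between these subsets, from Cuffdiff on the same libraries, holds the 5 and also Notch2 and Dll1. At an unadjusted p below 0.05 there were 8 of the 10 (all but Jag1 and Hey2), against 14.1% of all tested genes. The median log2 fold change of the 10 genes was -1.04, against 0.08 over all tested genes. Fold changes were taken from log2(FPKM + 1), so those of low genes come out smaller than they are.

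Notch4, Dll4 and Jag2 are the receptor and ligand genes that were lower together in type III ECs, so the 250 bases before their transcription start are shown, from RefSeq on GRCm38.p6, a later build than the mm9 of the expression tables. Capitals mark matches on either strand to 3 short motifs, the GC box GGGCGG, the ETS core GGAAG and the RBPJ core TGGGAA. The ETS and RBPJ cores share letters and can overlap. These letters are common, since 32.7%, 64.1% and 21.6% of 32851 promoter windows of the same length hold them, respectively.
Notch4 (chr17:34564045-34564294, plus strand): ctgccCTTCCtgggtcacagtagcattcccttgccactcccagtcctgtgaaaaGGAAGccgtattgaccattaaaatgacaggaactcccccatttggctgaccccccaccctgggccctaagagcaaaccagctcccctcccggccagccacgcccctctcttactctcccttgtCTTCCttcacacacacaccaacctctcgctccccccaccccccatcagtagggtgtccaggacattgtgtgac
Dll4 (chr2:119325534-119325783, plus strand): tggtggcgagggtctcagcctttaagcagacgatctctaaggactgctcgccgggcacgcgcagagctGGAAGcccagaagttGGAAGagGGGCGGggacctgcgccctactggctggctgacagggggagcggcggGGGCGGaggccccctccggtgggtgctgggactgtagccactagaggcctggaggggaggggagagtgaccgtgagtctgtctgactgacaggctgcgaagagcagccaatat
Jag2 (chr12:112929496-112929745, minus strand): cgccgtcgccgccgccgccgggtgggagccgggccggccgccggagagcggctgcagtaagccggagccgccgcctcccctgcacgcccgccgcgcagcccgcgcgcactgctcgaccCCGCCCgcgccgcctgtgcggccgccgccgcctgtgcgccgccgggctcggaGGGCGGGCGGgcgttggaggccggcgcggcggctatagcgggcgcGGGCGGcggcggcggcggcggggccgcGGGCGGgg
The windows differ in composition. Jag2 is the richest in G and C, at 87.2% of bases with 5 GC boxes, some of which overlap, and no ETS core. Dll4 has 65.6% G and C, 2 GC boxes and 2 ETS cores. Notch4 has 58.4%, no GC box and 3 ETS cores. None of the 3 holds the RBPJ core in this window.
Among the targets, RefSeq windows were matched for Hey2 and not for Hey1 and Hes1. Of the 9 windows matched for 8 genes, only that of Hey2 holds the RBPJ core, 207 bases before the start, and 50 bases around it are shown.
Hey2 (chr10:30842963-30843012, minus strand): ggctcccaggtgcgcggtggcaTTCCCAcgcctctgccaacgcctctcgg
A match of letters is a description of the window and says nothing of binding.

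Of the 3 receptors only Notch4 passed between types I and III. Notch4 is the receptor found mainly in ECs, and its gene spans bases 34701240 to 34725488 of chromosome 17 (mm9, plus strand). Its FPKM was 68.7 and 76.6 in the replicates of type I ECs, 29.1 and 27.3 in type II, and 13.0 and 13.8 in type III. The 3 subsets did not overlap, and replicates lay close together in each in the deposited FPKM, which were not rescaled. Median-of-ratios scaling divides type I replicates 1 and 2 by 1.19 and 0.849, which sets their Notch4 values further apart. The subsets stayed separate after it. Between type I and type III the log2 fold change was -2.36 (SE 0.24, limma adjusted p = 0.00078), and within replicates 1 and 2 it was -2.32 and -2.39. Notch4 passed the threshold under each of the 15 alternative settings tried, with adjusted p up to 0.025. The change was spread over both steps of the sort, with a log2 fold change of -1.33 from type I to type II and of -1.02 from type II to type III. Neither step alone passed the threshold (limma adjusted p = 0.061 and 0.14), although the first did when only genes with an FPKM of at least 5 were tested (0.045). With the replicate number added to the fit both steps passed (limma adjusted p = 0.013 and 0.036), but no pairing of the replicates is stated.

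Notch1, a receptor that ECs share with many cell types, lies on chromosome 2 from 26313422 to 26359342, on the minus strand. Its FPKM was 50.3 and 66.0 in type I, 33.2 and 40.9 in type II, and 29.5 and 43.5 in type III ECs. Both type I values lay above the other 4, while types II and III overlapped, and replicate 2 was the higher in every subset. The log2 fold change between type I and type III of -0.67 (95% interval -1.31 to -0.03) did not pass (limma adjusted p = 0.32). After median-of-ratios scaling the 2 subsets overlapped.

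Notch2, on chromosome 3 from 97817461 to 97954290, on the plus strand, was the least abundant receptor. It had an FPKM of 3.12 and 1.90 in type I, 3.01 and 3.62 in type II, and 6.46 and 6.05 in type III ECs. Its level in type III lay above that in the other subsets without overlap, the opposite order to Notch4. Its log2 fold change between type I and type III was 1.07 (SE 0.33, 95% interval 0.32 to 1.82), which did not pass (limma adjusted p = 0.14).

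The 3 receptors summed to an FPKM of 133 ± 15.8 (SD, n = 2) in type I, 68.6 ± 4.65 in type II and 56.1 ± 10.2 in type III ECs. Notch4 made up 54.6% ± 2.31 of this sum in type I, 41.3% ± 4.65 in type II and 24.1% ± 3.38 in type III ECs. Notch1 took 43.4% ± 3.18, 53.8% ± 4.34 and 64.5% ± 5.97, so it ranked below Notch4 in type I and above it in both other subsets. Notch2 went from 1.93% ± 0.873 through 4.82% ± 0.305 to 11.4% ± 2.59. Notch3, described below with the markers of pericytes, is left out of this sum. Its mean FPKM was 47.0 in type I, 44.6 in type II and 14.0 in type III, so shares of all receptors would be smaller. These shares were not tested, and a library's shares sum to 100% by construction.

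**Figure D1:**
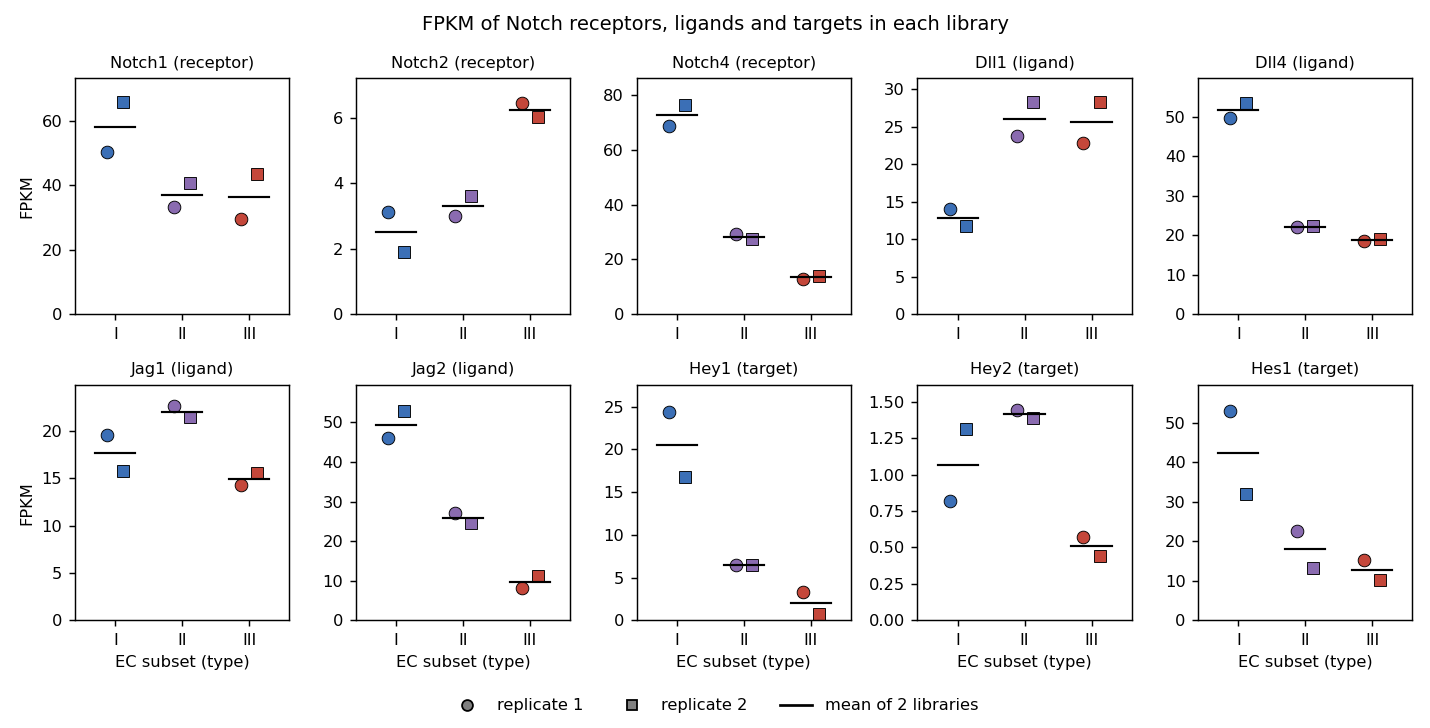
FPKM of each gene in each library, with a panel per gene, the EC subset on the x axis and FPKM from 0 on the y axis; circles and squares are replicates 1 and 2 and bars are means of 2 libraries. Notch4, Jag2 and Hey1 step down at both boundaries, Dll4 is lower in types II and III than in type I, and Notch2 and Dll1 are higher in type III than in type I.

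Of the 4 ligands, Dll4 and Jag2 were lower in type III than in type I ECs. Dll4, the Delta ligand of tip cells and arteries, lies on chromosome 2 from 119151520 to 119161402, on the plus strand. It had an FPKM of 49.8 and 53.6 in type I, 22.0 and 22.4 in type II, and 18.6 and 18.9 in type III ECs. Most of the difference lay between types I and II, and replicates differed by little in each subset in the deposited FPKM. Median-of-ratios scaling divides type I replicates 1 and 2 by 1.19 and 0.849, which sets their Dll4 values further apart. The log2 fold change between type I and type III was -1.41 (SE 0.23, limma adjusted p = 0.010). It was -1.18 at the first step (limma adjusted p = 0.097) and -0.23 at the second, with a 95% interval of -0.76 to 0.30 (limma adjusted p = 0.82). Dll4 no longer passed between types I and III without type I replicate 2 (0.054), type III replicate 1 (0.086) or type III replicate 2 (0.076), though its log2 fold change stayed between -1.47 and -1.36 as each library was left out.

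Jag2, a Jagged ligand, lies on chromosome 12 from 114146801 to 114167706, on the minus strand. Its FPKM was 45.9 and 52.8 in type I, 27.0 and 24.6 in type II, and 8.19 and 11.3 in type III ECs. The subsets did not overlap. The log2 fold change between type I and type III was -2.24 (SE 0.26, limma adjusted p = 0.0018), made up of -0.91 at the first step and -1.33 at the second (0.30 and 0.096). With no filter on low values, the adjusted p between types I and III was 0.053.

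Dll1, a Delta ligand on chromosome 17 from 15504318 to 15512787, on the minus strand, went the other way. It had an FPKM of 14.0 and 11.7 in type I, 23.7 and 28.2 in type II, and 22.9 and 28.3 in type III ECs. Both Selp+ subsets lay above type I and overlapped each other. The log2 fold changes from type I were 0.96 to type II (SE 0.26) and 0.94 to type III (SE 0.26, 95% interval 0.34 to 1.53), and neither passed (limma adjusted p = 0.26 and 0.099).

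Jag1, a ligand that ECs share with vascular smooth muscle, lies on chromosome 2 from 136907187 to 136942256, on the minus strand. Its FPKM was 19.6 and 15.7 in type I, 22.6 and 21.5 in type II, and 14.3 and 15.6 in type III ECs. It was highest in type II, and the range over all 6 libraries was the narrowest of the ligands. Its log2 fold change between types I and III was -0.22 (95% interval -0.80 to 0.36, limma adjusted p = 0.81), and between types II and III it was -0.53 (limma adjusted p = 0.55).

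The 4 ligands summed to an FPKM of 132 ± 3.20 (SD, n = 2) in type I, 96.0 ± 1.02 in type II and 69.0 ± 7.15 in type III ECs. Dll4 and Jag2 led in type I, with 39.3% ± 1.11 and 37.5% ± 2.79 of the sum. In type II no ligand stood apart, and the 4 shares ran from 22.9% to 27.0%. In type III Dll1 was the most abundant ligand, with 37.0% ± 1.70 against 9.79% ± 1.48 in type I. Jag2 had 14.0% ± 1.70 there, the smallest share of the 4.

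**Figure D2:**
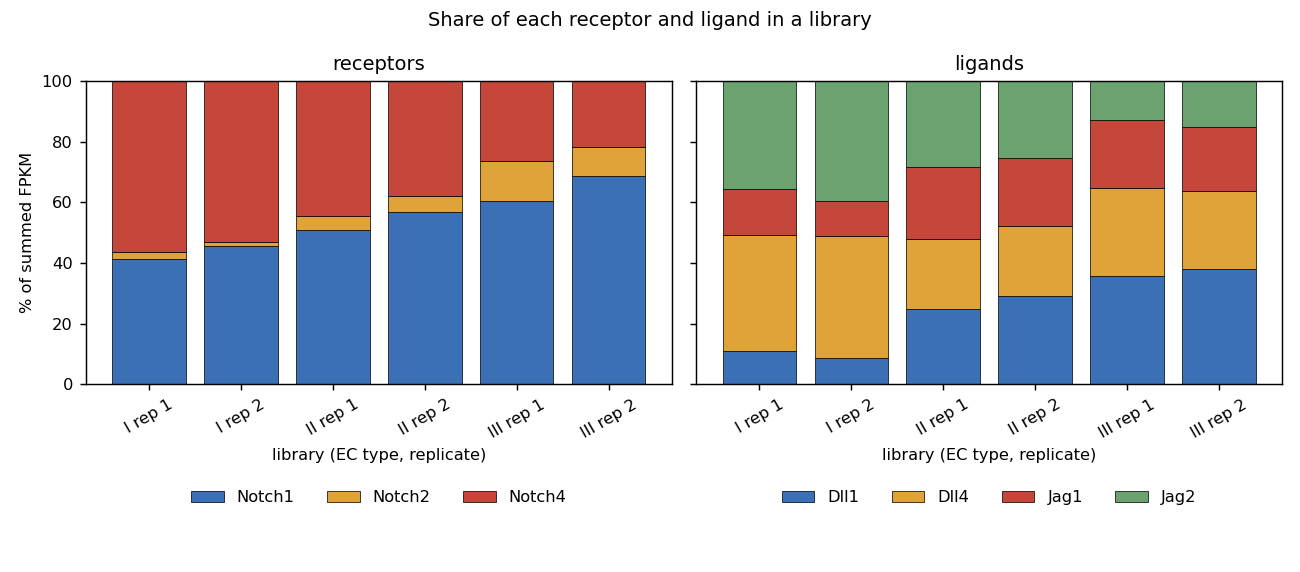
Share of each receptor (left) and each ligand (right) in the summed FPKM of its class, in percent on the y axis, with a bar per library and replicates side by side. Notch4 is 54.6% of receptor FPKM in type I and 24.1% in type III on average, and Dll1 is 9.79% and 37.0% of ligand FPKM.

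Of the targets, Hey1 and Hes1 passed and Hey2 was too low to judge. Hey1, a transcriptional repressor of arterial ECs, lies on chromosome 3 from 8663359 to 8667038, on the minus strand. Its FPKM was 24.3 and 16.8 in type I, 6.52 and 6.45 in type II, and 3.34 and 0.774 in type III ECs. The subsets did not overlap, but the last 2 values rested on about 15 and 6 fragments. The log2 fold change between types I and III was -2.94 (SE 0.43, limma adjusted p = 0.0057), and it ranged from -3.58 to -2.29 as each library was left out. It was -1.51 at the first step and -1.43 at the second, neither past the threshold (limma adjusted p = 0.29 and 0.28). With no filter on low values, the adjusted p between types I and III was 0.20.

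Hes1, a repressor that many cell types use downstream of Notch, lies on chromosome 16 from 30065443 to 30067882, on the plus strand. It had an FPKM of 53.1 and 31.9 in type I, 22.7 and 13.4 in type II, and 15.4 and 10.3 in type III ECs. Type I lay above the others, types II and III overlapped, and replicate 1 was the higher in every subset. Between types I and III the log2 fold change was -1.63 (SE 0.36, limma adjusted p = 0.040). This call was the least stable of the 5, since it held in only 2 of 6 fits with a library removed. It was lost without type I replicate 1 (adjusted p = 0.18), type I replicate 2 (0.058), type III replicate 1 (0.091) and type III replicate 2 (0.20), and also in limma without its trend on expression (0.075) or without the filter on low values (0.40). The replicates also differed in myeloid markers, which summed to a higher FPKM in replicate 1 of each subset, at 232 against 32.9 in type I, 85.7 against 36.5 in type II and 400.1 against 73.6 in type III. None of the 7 myeloid markers was at 0, and none of the 6 tested passed between types I and III. Thymocyte, thymic epithelial and lymphatic EC markers were also higher in replicate 1 of each subset, while the other marker lists were not. The FPKM of all genes summed to 299303 against 221458 in type I, 261233 against 229036 in type II and 300932 against 272220 in type III. After median-of-ratios scaling the limma adjusted p of Hes1 between types I and III was 0.0071. The part of other cells or of library scale in the Hes1 values was not tested.

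Hey2, a close relative of Hey1 on chromosome 10 from 30552165 to 30562589, on the minus strand, was the lowest of the 10 genes. It had an FPKM of 0.820 and 1.31 in type I, 1.44 and 1.38 in type II, and 0.574 and 0.444 in type III ECs. These values rested on about 3 to 12 fragments, and the gene reached an FPKM of 1 in no type III library, so it was tested only through the other subsets. Its log2 fold change between types I and III was -0.45 (95% interval -1.29 to 0.40, limma adjusted p = 0.72), and a difference was not detectable at this depth.

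Both boundaries of the sort were then compared on their own. From type I to type II, 0 of the 10 genes passed in limma, against 0.393% of all tested genes. At an unadjusted p below 0.05 there were 6, namely Notch4, Dll1, Dll4, Jag2, Hey1 and Hes1, against 7.48% of all tested genes. From type II to type III, 0 passed, against 0.222% of all tested genes. At an unadjusted p below 0.05 there were 4, namely Notch2, Notch4, Jag2 and Hey1, against 9.99%. Notch4, Jag2 and Hey1 thus had unadjusted p below 0.05 at both boundaries, while Dll1, Dll4 and Hes1 had it at the first only and Notch2 at the second only.

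Whether a gene changed more at a boundary than at the other was tested as the second log2 difference minus the first, in the same fit. None of the 10 genes passed (limma), against 0.0427% of all tested genes. At an unadjusted p below 0.05 there was 1, against 5.62%, and this was Dll4, with a difference of 0.95 (SE 0.41, unadjusted p = 0.043, limma adjusted p = 0.87). For Dll1 the difference was -0.98 (limma adjusted p = 0.88). For Notch4 it was 0.31, for Jag2 -0.43 and for Hey1 0.07, so equal steps could not be told from unequal ones. The comparisons share libraries, and their values are set side by side only as each stands.

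**Figure D3:**
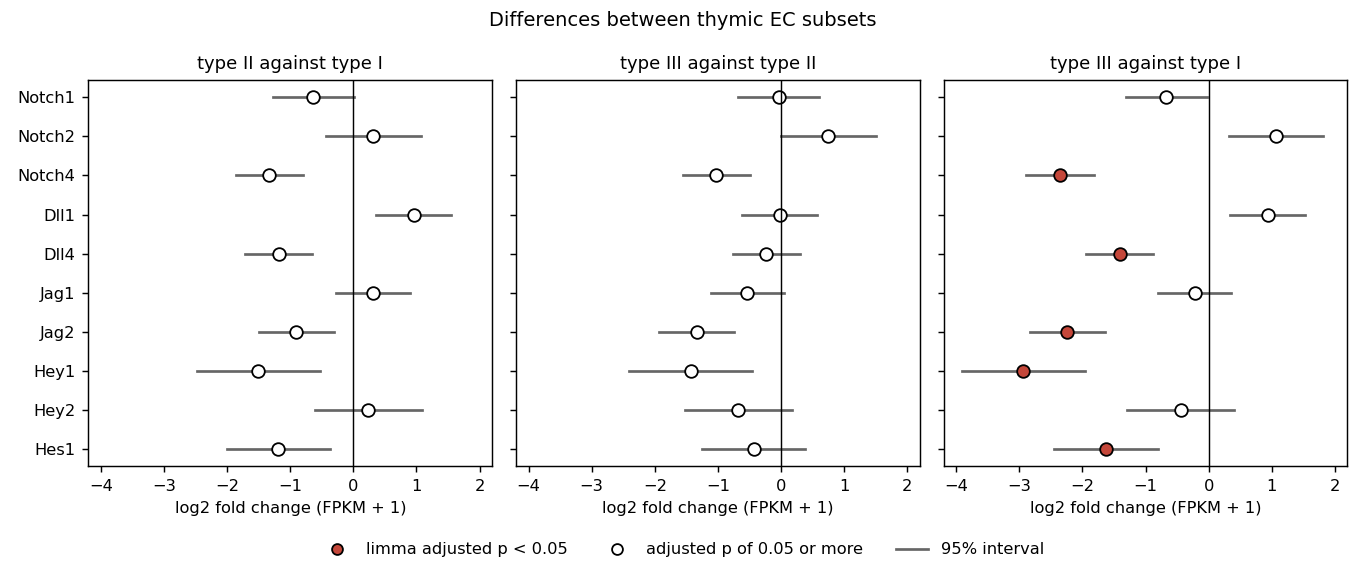
Log2 fold change of FPKM + 1 for each gene between types II and I (left), III and II (middle) and III and I (right), with 95% intervals from limma; filled points have an adjusted p below 0.05. Filled points appear only on the right, at Notch4, Dll4, Jag2, Hey1 and Hes1, all below 0.

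Without any model, and leaving out Hey2, whose values rest on too few fragments, both type III libraries lay outside the range of type I for 9 genes, with 7 lower and 2 higher (Notch2 and Dll1). Of all tested genes 37.9% were separate in this sense, 17.1% lower and 20.7% higher. Between types I and II, 6 of the 9 were lower and 2 higher (Dll1 and Jag1), against 33.6% of all tested genes separate, 20.6% lower and 13% higher. Between types II and III, 5 were lower and only Notch2 was higher, against 41% separate, 13.3% lower and 27.7% higher. With 2 libraries against 2, an exact permutation test of a single gene cannot give a p below 0.33. Scaling moved the median of all tested genes by -0.12 (median of ratios) or -0.14 (quantile normalization) between types II and III, and by at most 0.07 in size in the other pairs. Under either scaling Notch1 overlapped between types I and II, and Notch2 became higher without overlap in type II. Hes1 became lower without overlap in type III than in type II under either. After median-of-ratios scaling Notch1 also overlapped between types I and III. Jag1 counted as lower in type III than in type I only by 15.6 against 15.7, the FPKM of replicate 2 in each.

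FPKM is per length, so the genes can be ordered by level within a subset, and the order differed between subsets. In type I ECs Notch4 was highest, followed by Notch1, Dll4, Jag2 and Hes1, whose ranges overlapped from neighbour to neighbour. Hey1 and Jag1 overlapped below them, and Dll1, Notch2 and Hey2 closed the order without overlap. In type II, Notch1 led, then Notch4, Dll1 and Jag2 overlapped as neighbours, as did Dll4, Jag1 and Hes1, above Hey1, Notch2 and Hey2. In type III, Notch1, Dll1, Dll4 and Jag1 followed each other without overlap, Notch4, Hes1 and Jag2 overlapped as neighbours, and Notch2, Hey1 and Hey2 were lowest. Notch4 thus led all 10 genes in type I and stood below Notch1, Dll1, Dll4 and Jag1 in type III, while Dll1 stood above only Notch2 and Hey2 in type I and below only Notch1 in type III.

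A wider list of 63 genes of the pathway and its endothelial surroundings was set beside the 10. Of these, 54 were tested between types I and III, 7 were lower, 2 were higher and 45 did not pass, against 2.05% lower and 2.09% higher of all tested genes. These shares are also the background for the counts of each role and marker list between types I and III. Their median log2 fold change was -0.11, against 0.08 over all tested genes. The count was 5 without type I replicate 2, 5 without type III replicate 2 and 2 with no filter on low values.

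Of 11 other genes listed as targets, 7 were tested and 4 were lower in type III, each of them a gene of arterial ECs. Efnb2, the ephrin ligand that marks arteries, had an FPKM of 44.9 and 39.1 in type I, 26.0 and 15.4 in type II, and 7.77 and 9.86 in type III, a log2 fold change of -2.14 between types I and III (SE 0.31, limma adjusted p = 0.0053). Unc5b, a netrin receptor of arteries and tip cells, went from 20.4 and 24.2 through 9.25 and 5.83 to 3.61 and 1.14 (-2.89, SE 0.41, limma adjusted p = 0.0048). Neither gene overlapped between types I and III. Gja4, which encodes connexin 37, a gap junction protein, had an FPKM of 28.1 and 27.0 in type I, 23.3 and 14.9 in type II, and 1.51 and 3.83 in type III (-3.04, SE 0.37, limma adjusted p = 0.0022). It was also lower in type III than in type II (-2.50, limma adjusted p = 0.044). Gja5, which encodes connexin 40, went from 13.6 and 15.3 through 14.5 and 4.05 to 1.22 and 0.354 (-3.15, SE 0.51, limma adjusted p = 0.0092). The type II replicates of Gja5 spanned most of the distance between the other subsets. Nrarp, a feedback inhibitor of Notch, did not pass (-0.44), nor did Heyl, at 5.29 and 2.71 in type I against 0.308 and 1.13 in type III (-1.53, limma adjusted p = 0.12). Hes2 and Hes5 were listed at 0 in every library.

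Few genes that make, cut or read the receptor passed. None of 5 glycosyltransferases that modify receptors passed, nor did any of 13 genes of trafficking and turnover or 12 of the nuclear complex, including Rbpj itself (log2 fold change 0.53, limma adjusted p = 0.61). Of 9 tested proteases and gamma-secretase subunits, 1 passed. This was Psen2, the catalytic presenilin 2, with an FPKM of 15.1 and 12.8 in type I, 38.5 and 31.3 in type II, and 45.0 and 56.2 in type III, a log2 fold change of 1.78 (SE 0.26, limma adjusted p = 0.0054). Furin, the convertase that cleaves the receptor before it reaches the surface, did not pass (-0.81, limma adjusted p = 0.11).

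Transcription factors that act with the pathway in ECs moved both ways. Sox17, an arterial factor, was lower in type III (-1.65, SE 0.26, limma adjusted p = 0.0084), as was Sox18 (-1.05, SE 0.23, limma adjusted p = 0.040). Foxc1, a forkhead factor of developing vessels, was higher, at 6.97 and 4.98 in type I, 18.8 and 21.3 in type II, and 31.9 and 40.6 in type III (2.42, SE 0.28, limma adjusted p = 0.0017). Nr2f2, the venous factor COUP-TFII that represses Notch genes, had 14.2 and 6.93 in type I and 31.0 and 23.7 in type III, without passing (1.36, limma adjusted p = 0.068). The study's Cuffdiff list of genes differing between types I and III holds Heyl, Furin and Nr2f2, which did not pass here.

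**Figure D4:**
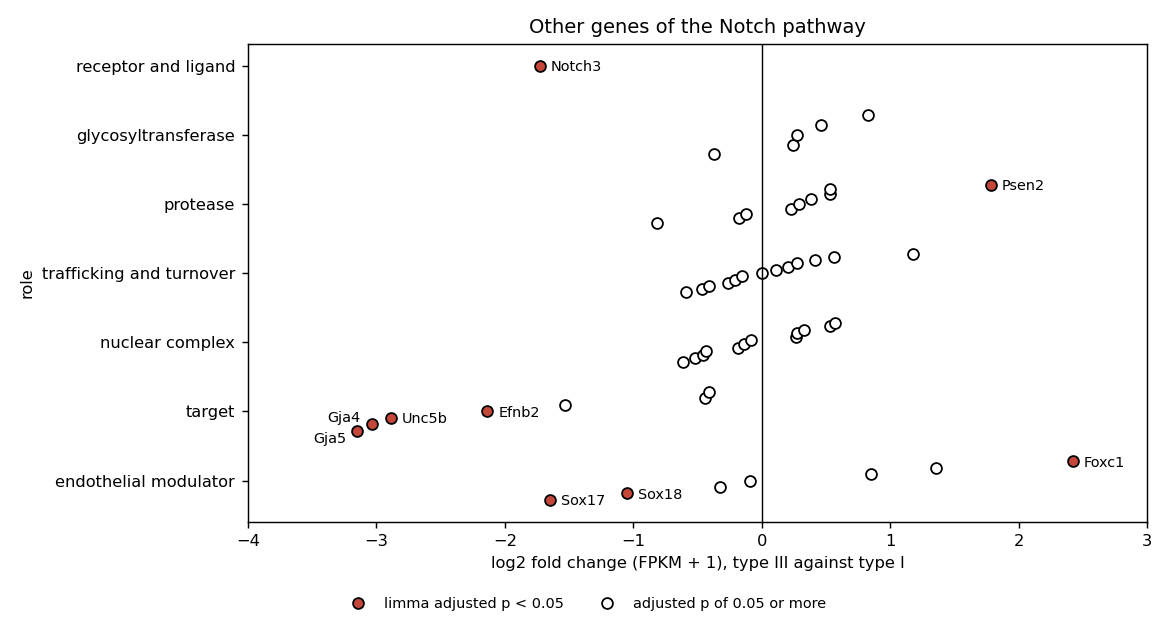
Log2 fold change of FPKM + 1 between type III and type I ECs for the 54 tested genes of the wider list, a point per gene, grouped by role on the y axis; filled points have a limma adjusted p below 0.05 and are named. The 9 filled points include 4 targets at -3.15 to -2.14, and Psen2 (1.78) and Foxc1 (2.42) are the only ones above 0.

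Notch3, the receptor of pericytes and smooth muscle, belongs to the wider list and to the markers of those cells. Its FPKM was 54.6 and 39.4 in type I, 45.6 and 43.7 in type II, and 9.40 and 18.6 in type III ECs, a log2 fold change of -1.73 between types I and III (SE 0.33, limma adjusted p = 0.021). The 11 markers of pericytes and smooth muscle summed to an FPKM of 271 to 630 in type I, 477 to 625 in type II and 184 to 265 in type III. Of 10 tested, 4 were lower in type III (Pdgfrb, Kcnj8, Abcc9 and Notch3) and 1 was higher (Tagln), Kcnj8 was at 0 in type III replicate 1, and Cnn1 was at 0 in some libraries. The part of these cells in the values of the Notch genes was not tested.

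Other markers moved with the subsets in places. Erythroid markers summed to 81.7 to 139 in type I, 24.9 to 50.6 in type II and 0 to 10.7 in type III, with 2 of 3 tested rows lower in type III. Thymocyte markers summed to 28.2 to 106 in type I, 44.6 to 74.0 in type II and 85.1 to 177 in type III, and 0 of 9 tested passed. Thymic epithelial markers, from cells that also express Dll4 and Jag ligands, summed to at most 46.2 in any library, and 0 of 6 passed. For fibroblasts 0 of 6 passed, with sums of 161 to 263 in type I, 261 to 427 in type II and 165 to 168 in type III. For lymphatic ECs 0 of 4 passed, with sums of 18.7 to 23.9, 9.85 to 12.4 and 13.3 to 30.1 in types I, II and III. Among the 9 EC markers, Cldn5 (-3.70) and Kdr (-1.49) were lower in type III, and the other 7 did not pass. The part of any of these in the Notch genes was not tested.

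For each of the 5 genes that passed between types I and III, the genes with the most similar pattern over the 6 libraries were listed among 4860 candidates, by Pearson's r of log2(FPKM + 1). The points of such a correlation fall into 3 subsets, so a high r mostly restates the order of the subsets. For Notch4 they were Pik3c2b, a lipid kinase (r = 0.998), Pxdn, which cross-links collagen IV (0.998), and Adarb1, an RNA-editing enzyme (0.995). For Dll4 they were Gfod1 (0.994), Furin (0.991) and Ppp1r10, a regulatory subunit of protein phosphatase 1 (0.991). The closest to Jag2 were Sipa1l2 (0.998), Cdh13, which encodes T-cadherin (0.997), and Rgs12, a regulator of G-protein signals (0.997). Hey1 was followed most closely by Timeless (0.995), the phosphate transporter gene Slc20a1 (0.994) and Pitpnc1 (0.993), and Hes1 by the phosphatase gene Dusp7 (0.997), the death receptor gene Fas (0.995) and Itga6, which encodes an integrin subunit (0.993). An r of at least 0.95 was reached by 61 to 144 genes for each of the 5.

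In the GENCODE annotation of the same build, 4 of the 10 genes overlap a gene on the opposite strand. These are Notch1 with 0610009E02Rik over 1489 bases and Gm13568 over 415, Notch4 with the pseudogene Gm20462 over 408, Dll1 with A930024N18Rik over 824, and Dll4 with Gm14207 over 411. Whether the counting used strand is not given in the sources used here, and reads of such partners cannot be told apart without it. All 10 are annotated as protein coding.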

How the data were processed

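RNA of thymic ECs in 3 subsets, 2 libraries each, was sequenced as paired-end reads. Per the submitters' processing notes the tools were CASAVA 1.8, TopHat2 2.0.10, Cufflinks 2.1.1 and Cuffdiff, with the mm9 build. The authors trimmed and mapped the reads and deposited an FPKM per gene and library with the bounds of its 95% interval, without pooling replicates. The gene annotation and the use of strand are not given in the sources used here. Cuffdiff needs reads, so FPKM were tested here with limma 3.58.1 in R 4.3.3.

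Spike-ins and reporters (95 rows) were removed. Values were analysed as log2(FPKM + 1), with no rescaling between libraries. The 11717 genes that reached an FPKM of 1 in 2 or more libraries entered a single limma fit with a trend, all 6 libraries and a mean per subset, and p-values were adjusted (Benjamini-Hochberg) over all of them per contrast, at a threshold of 0.05. Summed FPKM ran from 221458 to 300932 in a library. Fragments were read back as the square of 2 FPKM over the half-width of the interval. The fit was tested on simulated data.

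The 10 genes and all lists were chosen with earlier results of these data known, and many of the listed genes are among those the study itself selected on the same libraries, so counts over them are no independent evidence. Named are all 10 genes, up to 10 of the wider list that passed between types I and III (other list members were named after their values were seen), Notch3, and for each of the 10 that passed the 3 genes of highest r whose mean FPKM reached 10 in their highest subset. Alternatives were pseudocounts of 0.1 and 0.5, no filter or an FPKM of at least 5, median-of-ratios and quantile scaling, a replicate block, no trend, the compared subsets alone, and each library left out.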

Additional observations from a re-analysis of the deposited data

How the results depend on the processing

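Across 15 alternatives, no direction reversed for any of the 10 genes between types I and III or I and II, and Notch4 passed between types I and III in all 15, Jag2 and Hey1 in 14, Dll4 in 12 and Hes1 in 9. The causes of the shifts below were not tested.

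Between types I and III, 5 of the 10 genes passed in the fit reported, 2 (Dll4 and Notch4) with no filter and 3 to 5 as each library was left out, with 3 without type I replicate 2, type III replicate 1 or type III replicate 2. Over all genes the count was 485, with no filter 102, with the replicate block 971, and 209 to 404 with a library left out (249 without type I replicate 2, 209 and 219 without type III replicates 1 and 2). The wider list gave 9, then 2 with no filter and 5 to 8 with a library left out. Between types I and II, none of the 10 passed, 1 (Notch4) at an FPKM of at least 5 and 3 (Notch4, Dll4 and Hes1) with the block. Over all genes the count was 46, with no filter 10, with median-of-ratios scaling 97, quantile 103, the block 183, no trend 15, the compared subsets alone 29, and 12 to 33 with a library left out. Between types II and III, none of the 10 passed, and 2 (Notch4 and Jag2) with the block. Over all genes the count was 26, with no filter 2, median-of-ratios 85, quantile 90, the block 229, no trend 10, the compared subsets alone 7, and 2 to 14 with a library left out. The share of lower calls was 57.7% here, against 72.9% and 75.6% under the scalings and 45.9% with the block. Between types I and II it was 17.4%, against 29.9%, 29.1% and 45.9%. No gene of the 10 passed the contrast of steps under any setting.

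Over the tested genes, the deviation of replicate 2 from its subset mean correlated weakly and positively between subsets. The r was 0.20 for types I and II, 0.31 for I and III and 0.18 for II and III. Each comparison has 2 same-numbered pairs, and no pairing of the replicates is stated. The replicate block added Dll1 between types I and III (adjusted p = 0.030).

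Reversed values concern differences near 0. Between types II and III, Notch1 (-0.04) became 0.11 without type II replicate 2 and 0.24 without type III replicate 1 (range -0.31 to 0.24), and Dll1 (-0.02) became 0.10 and 0.12 (range -0.17 to 0.12). The contrast of steps for Hey1 (0.07) was -0.30 and -0.088 with pseudocounts of 0.1 and 0.5, -0.10 and -0.11 under the scalings, and -0.57 to 0.72 with a library left out. Hey2 gave no value at an FPKM of at least 5.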
